A study of Homo sapiens with 7 samples.

Results

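Histone chaperones are the proteins that bind histones outside nucleosomes and hand them to DNA or take them off it. Described here are 10 of their genes in HK-2, a cell line derived from the proximal tubule of a human kidney and immortalised for culture: SSRP1 and SUPT16H (the FACT complex), CHAF1A and CHAF1B (chromatin assembly factor 1, CAF-1), ASF1A, ASF1B, NASP, HIRA, DAXX and NAP1L1. They were chosen by name among the 33694 genes of the deposited count table, and the choice was made with the contrast below already known, so their differences between groups are given as description and carry no test. Each of the 10 names matched 1 row, and all 10 were among the 12404 genes that passed the filter on low counts.

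There were 3 libraries of cells transfected with siGLUT2, an siRNA against the glucose transporter GLUT2 (gene SLC2A2; the labels call these cells GLUT2-KD), numbered replicates 2 to 4. There were 4 libraries of cells transfected with a scrambled siRNA (labelled WT), numbered replicates 1 to 4. Both groups received 50 nM siRNA with the same lipid reagent and were lysed after 96 h. Nothing in the labels gives the siRNA sequence, a second siRNA against the same target or untransfected cells. The libraries are labelled biological replicates of this single cell line, and p-values measure the spread between them.

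FACT, made of SSRP1 and SUPT16H, loosens nucleosomes ahead of RNA and DNA polymerases and puts them back behind them. CAF-1, brought to the replication fork by PCNA, deposits new histones H3 and H4 on freshly copied DNA, and receives them from ASF1; ASF1 also feeds HIRA, which places the variant H3.3 outside replication. NASP keeps a soluble store of H3 and H4, DAXX with ATRX places H3.3 in heterochromatin, and NAP1L1 carries H2A and H2B. Proximal tubule cells divide little in the healthy kidney and re-enter the cell cycle after injury, whereas HK-2 cells proliferate in culture.

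Total counts were 5881366 to 6914302 in the siGLUT2 libraries and 5654957 to 8455963 in the scrambled libraries. SLC2A2, the siRNA's target, was counted 0 times in each siGLUT2 library, against 13, 13, 7 and 17 times in the scrambled libraries. Genes with at least 1 count numbered 13433 to 13891 in siGLUT2 and 14844 to 15036 in scrambled libraries, and mitochondrially encoded genes took 7.04% to 7.56% and 4.91% to 5.53% of counts. Of 18 proximal tubule markers, 13 had a count: PAX8, GGT1 and MIOX were expressed, while LRP2, SLC5A12, SLC22A6 and SLC22A8 were at 0 in all libraries and CUBN was counted once. Summed proximal tubule markers came to 353 to 392 CPM (counts scaled to the total of each library) in siGLUT2 and 393 to 403 CPM in scrambled libraries. Endothelial markers were at 0 apart from 3 counts of EMCN, and the leukocyte genes PTPRC, CD3E and LYZ were at 0. The leukocyte list came to 25.8 to 28.3 CPM in siGLUT2 and 13.6 to 18.7 CPM in scrambled libraries, nearly all of it CD68, a lysosomal gene. The fibroblast list came to 44.7 to 51.5 CPM in siGLUT2 and 16.6 to 22.6 CPM in scrambled libraries, with COL3A1 at 0 and COL1A2, PDGFRA and DCN at 2 counts or fewer. Within it LUM, a matrix proteoglycan gene, rose to 23.9 ± 4.67 CPM in siGLUT2, against 1.86 ± 0.88 CPM in scrambled libraries (edgeR, adjusted p = 9.11e-08). The collagen gene COL1A1 was at 16.6 ± 2.33 CPM in siGLUT2 and 9.40 ± 1.45 CPM in scrambled libraries; its adjusted p of 0.026 ran from 0.052 to 0.102 in the replicate block and without scrambled replicate 1, 3 or 4 or siGLUT2 replicate 4. PDGFRB and RGS5 did not pass. The part of these marker sums, of the number of genes counted and of the mitochondrial share in the results below was not tested.

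In what follows a level is in CPM scaled by TMM (a factor per library that aligns the bulk of genes), and a difference is a log2 fold change of siGLUT2 over scrambled with its standard error, from edgeR's quasi-likelihood fit over all tested genes. Of the 10 genes, 4 had an adjusted p below 0.05, all lower in siGLUT2, and 0 were higher; DESeq2, limma-voom and an unadjusted p below 0.05 also gave 4 lower and 0 higher. Over all tested genes 28.3% passed, 14.4% as lower. The same 4 genes, SSRP1, SUPT16H, NASP and CHAF1B, were lower in every siGLUT2 library than in any scrambled library, which held for 17.9% of all tested genes (35.1% had groups without overlap in either direction). Since the genes were picked with this contrast in view, nothing is read from these counts. The median log2 fold change was -0.22 over the 10 genes and -0.0029 over all tested genes. Together the 10 transcripts took 0.229% to 0.266% of counts in siGLUT2 and 0.317% to 0.333% in scrambled libraries.

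**Figure D1:**
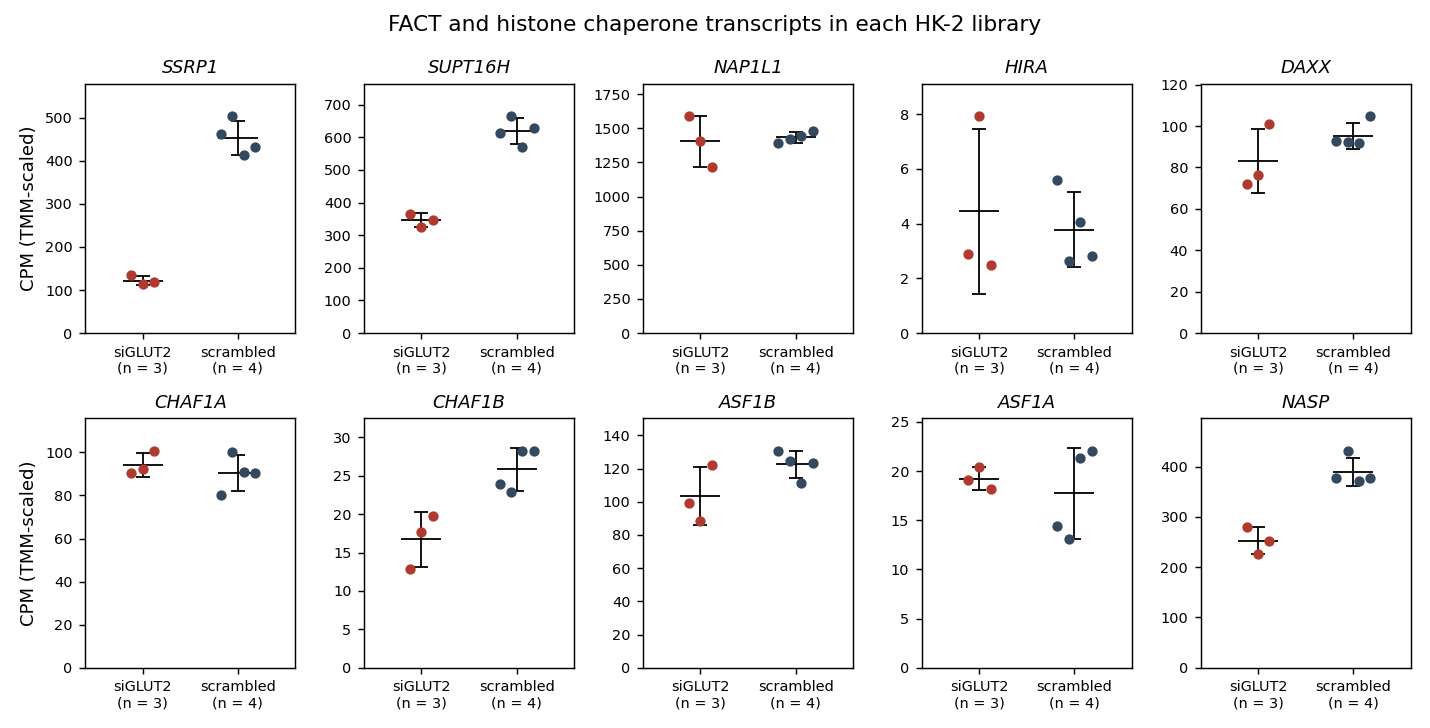
Level of each transcript in every library (vertical axis, TMM-scaled CPM, starting at 0), siGLUT2 left and scrambled right; points are libraries, the long dash is the mean and the bars are ± SD. SSRP1 lies between 113 and 134 CPM in siGLUT2 and between 414 and 504 CPM in scrambled libraries. NAP1L1, CHAF1A, ASF1B, ASF1A, HIRA and DAXX overlap between groups.

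FACT stood out among the 10 by the size of its difference. SSRP1 (GRCh38 chromosome 11, 57325985 to 57335877, minus strand, protein coding) encodes the HMG-box subunit of FACT. Its level was 133.9, 113.4 and 118.2 CPM in siGLUT2 replicates 2, 3 and 4, against 461.5, 504.1, 413.8 and 431.6 CPM in scrambled replicates 1 to 4. The groups were far apart, and the highest siGLUT2 library lay well below the lowest scrambled one. The means were 122 ± 10.7 CPM (SD, n = 3) in siGLUT2 and 453 ± 39.5 CPM (SD, n = 4) in scrambled libraries, a log2 fold change of -1.89 ± 0.10, or 26.9% of the scrambled mean. Ranked from the most negative difference, SSRP1 was number 204 of 12404 genes. An antisense gene, AP000781.1, covers its 3' end and had 0 counts in all libraries.

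SUPT16H (chromosome 14, 21351472 to 21384266, minus strand, protein coding) encodes SPT16, the larger subunit and the main histone-binding surface of FACT. It stood at 366.2, 324.5 and 346.8 CPM in siGLUT2 and at 612.6, 664.9, 571.6 and 627.7 CPM in scrambled libraries. No siGLUT2 value reached the scrambled range, but the gap was narrower than for SSRP1. The means were 346 ± 20.8 CPM (SD, n = 3) and 619 ± 38.6 CPM (SD, n = 4), a log2 fold change of -0.84 ± 0.08, or 55.9% of the scrambled mean. SUPT16H has processed pseudogenes, which could share reads with it.

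The FACT subunits were therefore not lower by the same amount. In counts of the same library, SSRP1 over SUPT16H was 0.366, 0.349 and 0.341 in siGLUT2 replicates 2 to 4 and 0.753, 0.758, 0.724 and 0.688 in scrambled replicates 1 to 4. The mean ratio was 0.352 ± 0.013 (SD, n = 3) in siGLUT2 and 0.731 ± 0.032 (SD, n = 4) in scrambled libraries, a log2 difference of -1.05. The ratio needs no scaling between libraries, and within either group it varied by little. A ratio of counts of different genes also depends on how well each transcript end is captured, so its change can be read but its absolute value is not a ratio of molecules.

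The FACT promoters, taken from RefSeq (GRCh38.p14, 250 bases before to 50 after the start of the gene, written in the direction of transcription), are shown because both subunits were lower. Searched on both strands were the E2F words TTTCCCGC, TTTGGCGC and TTCCCGCC (the first and the last overlap where a run holds both), the CHR word TTTGAA, through which DREAM and B-MYB complexes act on cell cycle genes, the NF-Y word CCAAT and the ETS word CCGGAAGT. Capitals mark each match other than ETS words, as CCAAT or its reverse complement ATTGG in the SUPT16H window.
SSRP1 promoter (chr11:57335843-57336142, minus strand): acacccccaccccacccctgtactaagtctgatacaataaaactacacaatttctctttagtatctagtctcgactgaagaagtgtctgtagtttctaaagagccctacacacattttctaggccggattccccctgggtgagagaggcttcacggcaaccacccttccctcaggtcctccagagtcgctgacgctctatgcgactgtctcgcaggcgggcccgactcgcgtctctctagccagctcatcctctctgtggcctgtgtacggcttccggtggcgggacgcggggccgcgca
SUPT16H promoter (chr14:21383970-21384269, minus strand): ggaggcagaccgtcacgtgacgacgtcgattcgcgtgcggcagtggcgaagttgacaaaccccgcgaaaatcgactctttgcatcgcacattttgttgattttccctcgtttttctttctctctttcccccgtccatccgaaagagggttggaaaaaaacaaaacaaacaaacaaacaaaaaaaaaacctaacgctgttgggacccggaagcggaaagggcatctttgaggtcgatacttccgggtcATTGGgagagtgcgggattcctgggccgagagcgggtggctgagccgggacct
No searched word was found in the SSRP1 window, and SUPT16H held ATTGG starting 3 bases and an ETS word starting 14 bases before the start. Of 35116 promoters of this length, 4.59% held an E2F word, 15.2% TTTGAA, 34.6% CCAAT and 4.14% CCGGAAGT.

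The 3' untranslated regions (UTRs) of the members were searched for GACCTTA and ACCTTAA. These words had been picked by an earlier scan of these same fold changes, so a match here is a description and gives no separate support. They stood in 1789 of 11618 tested genes with an annotated 3' UTR (15.4%, longest UTR per gene, GENCODE 29) and in 2 of the 10 members, SSRP1 and NAP1L1. The sites are shown with flanking bases, the word in capitals.
SSRP1 site, base 263 of a 422-base 3' UTR: ttactttcccGACCTTAaggatgtagc
NAP1L1 site, base 2814 of an 11842-base 3' UTR: ttgcaaaaatACCTTAAttgtgtggaa
NAP1L1 site, base 6377 of the same 3' UTR: aaaaaaaattGACCTTAacctaaagtg
In SSRP1, and in NAP1L1 at base 6377, the words overlap as GACCTTAA. Those of SSRP1 lie in its single annotated coding transcript with a 3' UTR. In NAP1L1 2 of 12 annotated coding transcripts with a 3' UTR hold either word. The shorter of these UTRs has 2853 bases, too few for the site at base 6377, and the shortest UTR of the gene has 149 bases. The part of the word in the SSRP1 difference was not tested. Genes with either word had a median log2 fold change of -0.10, and genes with neither 0.018. Among the 266 genes with GACCTTAA it was -0.215. Since the words were picked from these same fold changes, nothing is read from these medians. SUPT16H, CHAF1B and NASP, the other members without overlap between groups, held neither word.

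CAF-1 also split between its subunits. CHAF1A (chromosome 19, 4402662 to 4445018, plus strand, protein coding) encodes the large subunit, which binds PCNA. Its level was 90.2, 92.1 and 100.7 CPM in siGLUT2 and 80.2, 100.3, 90.9 and 90.5 CPM in scrambled libraries. The groups overlapped almost fully, with a log2 fold change of 0.06 ± 0.12 on 513 to 836 counts per library. UBXN6, on the opposite strand with 3192 counts, overlaps the 3' end of CHAF1A. CHAF1B (chromosome 21, 36385378 to 36419015, plus strand, protein coding) encodes the WD-repeat subunit that binds ASF1. It stood at 12.8, 17.7 and 19.7 CPM in siGLUT2 and at 24.0, 22.9, 28.2 and 28.2 CPM in scrambled libraries. Its groups did not overlap, but siGLUT2 replicate 4 and scrambled replicate 2 lay close together, and the difference, -0.62 ± 0.22, rests on 75 to 126 counts per siGLUT2 library and 160 to 223 per scrambled library. Over all alternatives, which left out each library in turn among other settings, its log2 fold change ran from -0.755 to -0.465. CHAF1B had an adjusted p below 0.05 in only 7 of these 14 alternatives.

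The ratio of CHAF1A over CHAF1B counts was 7.05, 5.20 and 5.11 in siGLUT2 and 3.35, 4.38, 3.22 and 3.21 in scrambled libraries. It was higher in each siGLUT2 library than in any scrambled library, at 5.79 ± 1.10 (SD, n = 3) against 3.54 ± 0.56 (SD, n = 4). Of the CAF-1 subunits among the members, CHAF1B lay below its scrambled level and CHAF1A did not. The small subunit RBBP4, described with the partners below, was also lower, at -0.46 ± 0.11.

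**Figure D2:**
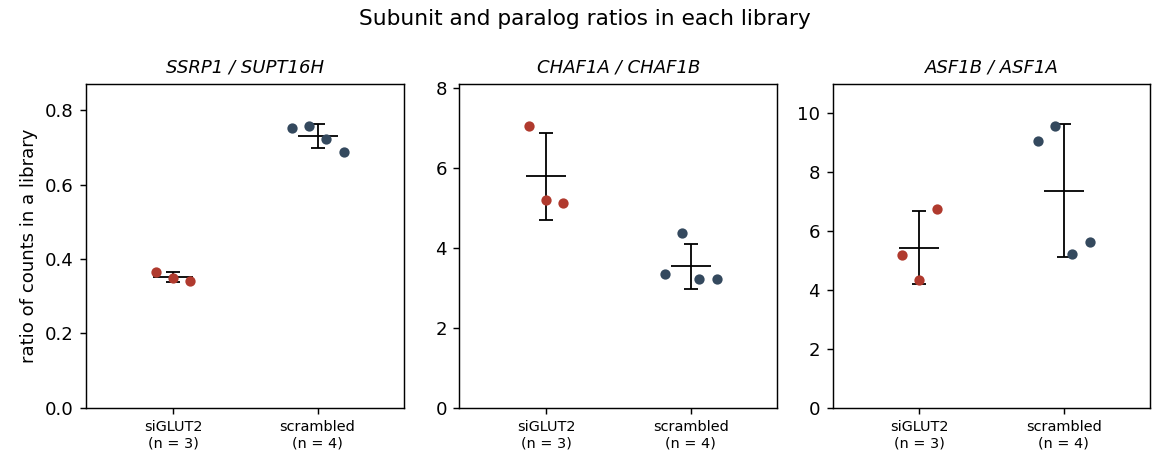
Ratio of counts of SSRP1 over SUPT16H, CHAF1A over CHAF1B and ASF1B over ASF1A within each library (vertical axes, starting at 0), siGLUT2 left and scrambled right; points are libraries, dashes means and bars ± SD. The FACT ratio is 0.341 to 0.366 in siGLUT2 and 0.688 to 0.758 in scrambled libraries, the CAF-1 ratio does not overlap either, and the ASF1 ratio does.

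ASF1 exists as paralogs in human cells. ASF1B (chromosome 19, 14119509 to 14136956, minus strand, protein coding) is the form tied to proliferating cells and works with CAF-1. It was measured at 99.1, 88.3 and 122.4 CPM in siGLUT2 and at 130.6, 124.8, 111.3 and 123.6 CPM in scrambled libraries. siGLUT2 replicates 2 and 3 lay below all scrambled libraries and replicate 4 lay within them, giving -0.25 ± 0.12. Without siGLUT2 replicate 4 the value was -0.391.

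ASF1A (chromosome 6, 118894220 to 118909167, plus strand, protein coding), the form that prefers HIRA, was at 19.1, 20.5 and 18.1 CPM in siGLUT2 and at 14.4, 13.1, 21.4 and 22.05 CPM in scrambled libraries. All siGLUT2 values fell inside the scrambled range, which itself split into a lower and a higher pair, and the difference was 0.12 ± 0.24. ASF1B over ASF1A was 5.42 ± 1.23 (SD, n = 3) in siGLUT2 and 7.36 ± 2.26 (SD, n = 4) in scrambled libraries, with overlap. The 3' end of ASF1A is covered by MCM9 on the opposite strand, a gene with 337 counts over all libraries, and reads of such pairs cannot be told apart where the strand setting is unknown.

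The CAF-1 and ASF1B promoters are shown as windows of replication-coupled genes, with the same words in capitals. The window of NASP, also counted as replication-coupled, is not shown. It held ATTGG starting 203 bases and an ETS word starting 62 bases before the start.
CHAF1A promoter (chr19:4402390-4402689, plus strand): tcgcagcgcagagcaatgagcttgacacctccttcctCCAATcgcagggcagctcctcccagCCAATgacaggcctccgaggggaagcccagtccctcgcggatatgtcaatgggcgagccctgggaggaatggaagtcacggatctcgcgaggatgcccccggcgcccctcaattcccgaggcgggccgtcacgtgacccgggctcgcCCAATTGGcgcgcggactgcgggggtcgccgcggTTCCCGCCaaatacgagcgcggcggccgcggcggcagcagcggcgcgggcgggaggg
CHAF1B promoter (chr21:36385142-36385441, plus strand): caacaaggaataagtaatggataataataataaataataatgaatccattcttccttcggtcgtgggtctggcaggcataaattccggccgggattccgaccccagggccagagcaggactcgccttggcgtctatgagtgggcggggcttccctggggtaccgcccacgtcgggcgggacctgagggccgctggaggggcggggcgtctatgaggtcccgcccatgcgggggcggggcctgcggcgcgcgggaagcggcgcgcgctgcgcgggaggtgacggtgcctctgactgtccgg
ASF1B promoter (chr19:14136540-14136839, minus strand): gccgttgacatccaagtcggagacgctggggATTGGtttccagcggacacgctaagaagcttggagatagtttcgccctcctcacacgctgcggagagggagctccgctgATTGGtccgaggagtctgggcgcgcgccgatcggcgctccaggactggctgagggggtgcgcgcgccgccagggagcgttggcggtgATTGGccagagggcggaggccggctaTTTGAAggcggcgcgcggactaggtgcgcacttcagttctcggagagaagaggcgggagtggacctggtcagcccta
The CHAF1A window held the E2F word TTCCCGCC starting 7 bases before the start, and CCAAT in either direction at 4 places, with an overlapping pair as CCAATTGG. The ASF1B window held TTTGAA starting 27 bases before the start and ATTGG at 3 places. The CHAF1B window held none of the words. Of the 9 members with a RefSeq promoter, 3 held an E2F word (CHAF1A, HIRA and NAP1L1), 1 held TTTGAA, 5 held CCAAT and 3 held CCGGAAGT (SUPT16H, NASP and HIRA).

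NASP (chromosome 1, 45583846 to 45618904, plus strand, protein coding), the carrier of soluble H3 and H4, was at 280.4, 225.7 and 252.1 CPM in siGLUT2 and at 377.8, 431.1, 370.3 and 376.6 CPM in scrambled libraries. All siGLUT2 values were below the lowest scrambled value, and scrambled replicate 2 stood above the other scrambled libraries. The means were 253 ± 27.4 CPM (SD, n = 3) and 389 ± 28.3 CPM (SD, n = 4), a log2 fold change of -0.62 ± 0.09.

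HIRA (chromosome 22, 19330698 to 19447450, minus strand, protein coding), which deposits H3.3 at active genes, had the lowest level of the 10. It was counted 17, 55 and 16 times in siGLUT2 (2.90, 7.93 and 2.50 CPM) and 40, 22, 32 and 16 times in scrambled libraries (5.61, 2.64, 4.05 and 2.82 CPM). A single library, siGLUT2 replicate 3, gave the highest value of all 7, and the difference of 0.24 ± 0.55 became -0.485 without it. A difference in HIRA could not be told from the spread between libraries, which exceeded counting error, and its span overlaps C22orf39 on the same strand, a gene with 1461 counts.

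DAXX (chromosome 6, 33318558 to 33323016, minus strand, protein coding), the H3.3 chaperone that works with ATRX, was at 71.8, 76.5 and 100.9 CPM in siGLUT2 and at 92.9, 92.1, 91.7 and 104.8 CPM in scrambled libraries. As for ASF1B, siGLUT2 replicates 2 and 3 were below every scrambled library and replicate 4 was not, and the difference was -0.20 ± 0.13. It was -0.364 without siGLUT2 replicate 4.

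NAP1L1 (chromosome 12, 76036587 to 76085033, minus strand, protein coding), which carries H2A and H2B and is among the most counted genes (number 88 of 12404 by mean CPM), was at 1589, 1405 and 1220 CPM in siGLUT2 and at 1389, 1422, 1442 and 1480 CPM in scrambled libraries. The siGLUT2 values ran from above to below the whole scrambled range, at 1405 ± 185 CPM (SD, n = 3) and 1433 ± 38.1 CPM (SD, n = 4), for a log2 fold change of -0.03 ± 0.08. Counting alone would give a coefficient of variation of 1.06% in siGLUT2 and 0.981% in scrambled libraries, and the coefficient of variation was 13.1% in siGLUT2 and 2.66% in scrambled libraries. NAP1L1 has processed pseudogenes that can share its reads, so its value is uncertain.

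**Figure D3:**
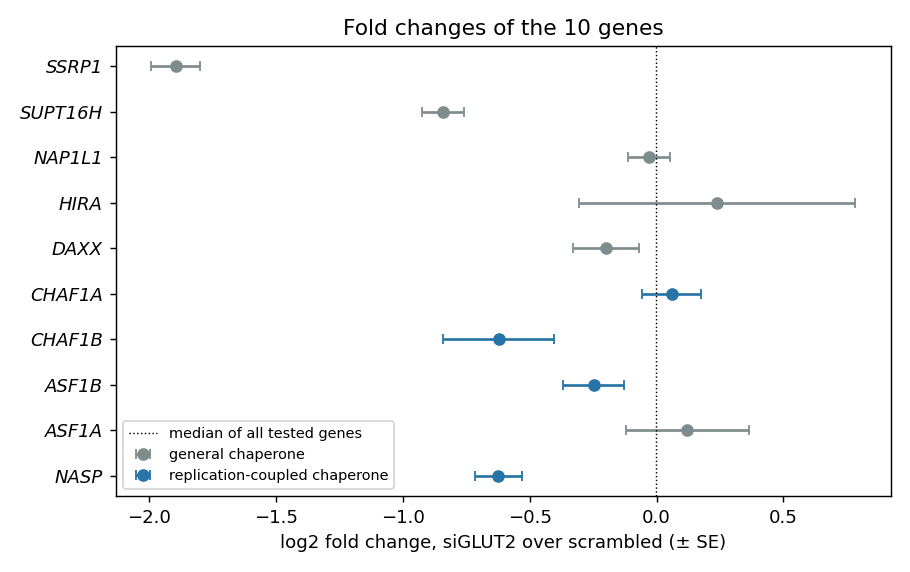
Log2 fold change of siGLUT2 over scrambled (horizontal axis, points, with bars of ± 1 standard error) for the 10 genes, grey for general and blue for replication-coupled chaperones; the dotted line is the median of all tested genes. SSRP1 lies at -1.89 and SUPT16H at -0.84, NASP and CHAF1B lie at -0.62, and the other 6 lie between -0.25 and 0.24.

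The siGLUT2 libraries ordered the members in different ways. Replicate 2 was the highest of the 3 for SSRP1, SUPT16H, NASP and NAP1L1, and replicate 4 the highest for CHAF1A, CHAF1B, ASF1B and DAXX. In SSRP1, SUPT16H and NASP replicate 3 was the lowest. Within the siGLUT2 group the coefficient of variation was 6.03% for SUPT16H, 8.79% for SSRP1, 21.3% for CHAF1B and 68.1% for HIRA, and counting error alone would give about 2.13%, 3.59%, 9.62% and 18.5%.

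Transcript levels covered a wide range. From the scrambled means the order was NAP1L1 (1433 CPM), SUPT16H (619), SSRP1 (453), NASP (389), ASF1B (123), DAXX (95.4), CHAF1A (90.5), CHAF1B (25.8), ASF1A (17.7) and HIRA (3.78). In siGLUT2 libraries it was NAP1L1 (1405 CPM), SUPT16H (346), NASP (253), SSRP1 (122), ASF1B (103), CHAF1A (94.3), DAXX (83.1), ASF1A (19.2), CHAF1B (16.7) and HIRA (4.44). SSRP1 stood below NASP in each siGLUT2 library and above it in each scrambled library, though the ranges of these neighbours overlapped in scrambled libraries. DAXX and CHAF1A lay within each other's spread in both groups. In siGLUT2 libraries so did SSRP1 and ASF1B, ASF1B and CHAF1A, and ASF1A and CHAF1B. The counts are of transcript ends and are not divided by length, and capture may differ between genes, so the order is approximate.

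The genes were divided into replication-coupled chaperones (CHAF1A, CHAF1B, ASF1B and NASP) and general chaperones (SSRP1, SUPT16H, ASF1A, HIRA, DAXX and NAP1L1). The median log2 fold change was -0.43 over the 4 replication-coupled and -0.11 over the 6 general genes, a difference of -0.32. The ranges overlapped, from -0.62 to 0.06 and from -1.89 to 0.24, and the most negative values of all belonged to the FACT genes of the general class. The difference was -0.0495 with NASP counted as general and -0.48 with FACT left out, a choice made after seeing the data, and without siGLUT2 replicate 3 it was -0.0342. Summed levels were 482.5, 423.8 and 494.9 CPM in siGLUT2 and 612.5, 679.1, 600.8 and 618.9 CPM in scrambled libraries for the replication-coupled genes. For the general genes they were 2183, 1948 and 1807 CPM in siGLUT2 and 2576, 2699, 2545 and 2669 CPM in scrambled libraries, most of it NAP1L1.

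Other genes of histone handling were tested in the same fit, from lists chosen with earlier results of these data known. Their adjusted p-values are edgeR's, with Benjamini-Hochberg adjustment over the 12404 genes, of which 28.3% passed, 14.4% as lower and 13.9% as higher. At the replication fork 5 of 10 tested genes (50%) fell and 0 rose, with a median log2 fold change of -0.49. POLE3, a histone-fold subunit of DNA polymerase epsilon, averaged 94.7 ± 1.94 CPM in siGLUT2 and 187 ± 5.72 CPM in scrambled libraries (adjusted p = 1.30e-07), and it was the only fork gene whose 3' UTR held GACCTTA or ACCTTAA. POLA1, the catalytic subunit of DNA polymerase alpha, averaged 39.9 ± 4.00 CPM and 79.3 ± 5.52 CPM (adjusted p = 1.20e-05). MCM2, a helicase subunit that also binds parental H3 and H4, changed by -0.62 ± 0.11, the replication timing factor RIF1 by -0.44 ± 0.09 and the fork scaffold WDHD1 by -0.67 ± 0.20 (adjusted p = 0.013, and 0.073 without siGLUT2 replicate 3). MMS22L and DNAJC9, partners that bring H3 and H4 to the fork, did not pass, at -0.05 ± 0.22 and -0.26 ± 0.10.

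Partners of the members went both ways. Of 12 genes, 3 rose and 3 fell (50% in all), with a median of -0.26. RBBP4, which is also the small subunit of CAF-1, averaged 143 ± 14.7 CPM in siGLUT2 and 196 ± 21.97 CPM in scrambled libraries (adjusted p = 0.0025), and its near copy RBBP7 averaged 211 ± 33.2 CPM and 303 ± 12.2 CPM (adjusted p = 0.00039). UBN1, the ubinuclein subunit of the HIRA complex, rose to 216 ± 15.8 CPM in siGLUT2, against 151 ± 9.80 CPM in scrambled libraries (adjusted p = 0.00029). ATRX, the partner of DAXX, rose to 456 ± 43.8 CPM, against 364 ± 11.6 CPM (adjusted p = 0.0052). PCNA, the sliding clamp that recruits CAF-1, changed by -0.38 ± 0.12 with overlap between groups; its adjusted p of 0.026 ran from 0.053 to 0.113 without scrambled replicate 1, 3 or 4 or siGLUT2 replicate 4. HAT1, which acetylates new H4, rose by 0.38 ± 0.13. Its adjusted p of 0.036 ran from 0.056 to 0.103 in the replicate block, without a low-count filter, and without scrambled replicate 1, 2 or 4 or siGLUT2 replicate 3 or 4. RBBP4 and RBBP7 are close relatives that can share reads.

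Of 7 genes in the list of the centromeric histone CENP-A and its loading factors, 2 fell and 0 rose, with a median of -0.44. The share that passed, 28.6%, was close to that of all tested genes. The CENP-A chaperone HJURP averaged 71.1 ± 3.98 CPM in siGLUT2 and 117 ± 7.42 CPM in scrambled libraries (adjusted p = 4.94e-05). OIP5, a subunit of the MIS18 complex, changed by -0.57 ± 0.19 with an adjusted p of 0.029, which ran from 0.053 to 0.11 in the replicate block and without scrambled replicate 2 or 4 or siGLUT2 replicate 3 or 4. CENPA itself was at 22.8 ± 2.42 CPM in siGLUT2 and 31.0 ± 3.93 CPM in scrambled libraries and did not pass (adjusted p = 0.089).

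Among other chaperones of H2A-H2B, H2A.Z and H1, 3 of 16 tested genes rose and 4 fell (43.8% in all), with a median of -0.08. ZNHIT1, a subunit of the SRCAP complex that inserts H2A.Z, changed by -0.66 ± 0.13 and ANP32E, which removes H2A.Z, by -0.46 ± 0.10. SET, an abundant inhibitor of histone acetylation, averaged 1308 ± 46.7 CPM in siGLUT2 and 1547 ± 106 CPM in scrambled libraries (adjusted p = 0.018, and 0.076 without scrambled replicate 2). TSPYL1, a relative of SET and NAP1L1, rose by 0.76 ± 0.18. Without siGLUT2 replicate 2 only 1 of the list rose, and without scrambled replicate 2 only 2 fell.

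Among elongation factors and FACT partners 2 of 16 rose and 2 fell, with a median of -0.06. The share that passed, 25%, was no higher than the 28.3% of all tested genes, so the count is no result about the list. SUPT5H, a subunit of the elongation factor DSIF, changed by -0.56 ± 0.13, while its partner SUPT4H1 rose by 0.38 ± 0.10. The PAF1 complex subunits CDC73 and LEO1 also went apart, at -0.63 ± 0.16 and 0.55 ± 0.18, and the 3' UTR of CDC73 held GACCTTA or ACCTTAA. LEO1 had an adjusted p of 0.024 that ran from 0.051 to 0.077 without scrambled replicate 2, 3 or 4 or siGLUT2 replicate 4.

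Histone genes with polyadenylated transcripts are the histones that a method based on transcript ends can count. Of 10 tested, 2 rose and 4 fell (60% in all), with a median of -0.13. H3-3B (deposited as H3F3B), which encodes the H3.3 that HIRA and DAXX deposit, rose to 945 ± 68.4 CPM in siGLUT2, against 686 ± 27.2 CPM in scrambled libraries (adjusted p = 8.38e-05). The other H3.3 gene of the list, H3-3A (H3F3A), did not pass, at 0.70 ± 0.43. Its level was low, 8.62 ± 2.32 CPM in siGLUT2 and 5.31 ± 2.54 CPM in scrambled libraries, with overlap. MACROH2A1 (H2AFY), a repressive H2A variant, averaged 96.5 ± 4.77 CPM and 235 ± 11.4 CPM (adjusted p = 2.20e-09), and the linker histone H1-10 (H1FX) 62.1 ± 12.8 CPM and 120 ± 18.7 CPM (adjusted p = 3.67e-05). H2AX (H2AFX), the variant phosphorylated at DNA breaks, changed by -1.03 ± 0.22. H3-3B has many processed pseudogenes, so its value is uncertain.

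In the machinery of replication-dependent histone mRNAs 2 of 11 genes fell and 0 rose, with a median of 0.05. The share that passed, 18.2%, was below that of all tested genes, so here too the count is no result about the list. SLBP, the stem-loop binding protein that is made in S phase, averaged 88.8 ± 25.9 CPM in siGLUT2 and 150 ± 20.6 CPM in scrambled libraries (adjusted p = 0.00078), and the cleavage nuclease CPSF3 34.2 ± 7.62 CPM and 65.4 ± 3.70 CPM (adjusted p = 0.00015).

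S phase markers were mostly lower in siGLUT2. They are the Tirosh list of S phase markers, with the members and the genes of the other lists left out. Any member or gene of those lists that the Tirosh list holds is therefore not counted here, and may itself be an S phase marker. Of 34 tested, 21 fell (61.8%) and 0 rose, with a median of -0.61, where 14.4% of all tested genes fell. Their summed level was 2400 to 2560 CPM in siGLUT2 and 3730 to 3850 CPM in scrambled libraries. MCM5 changed by -1.27 ± 0.11, the deubiquitinase USP1 by -1.10 ± 0.12 and the ribonucleotide reductase subunit RRM1 by -0.85 ± 0.08. MCM4 averaged 199.6 ± 22.7 CPM in siGLUT2 and 400 ± 32.7 CPM in scrambled libraries. The 3' UTRs of 5 of the 34 held GACCTTA or ACCTTAA, and 3 of these genes fell, USP1, CCNE2 and ATAD2. In the other lists POLE3 and CDC73 held a word and fell. UBN2 (-0.37), CENPC (-0.49) and ERI1 (-0.29) held one and did not pass. The part of S phase markers in the differences of NASP, CHAF1B and the FACT genes was not tested, and in bulk RNA fewer cells in S phase and less transcript per cell cannot be told apart. For the 4 lists in which 0 genes rose by edgeR's test, DESeq2, limma-voom and an unadjusted p below 0.05 also gave 0.

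**Figure D4:**
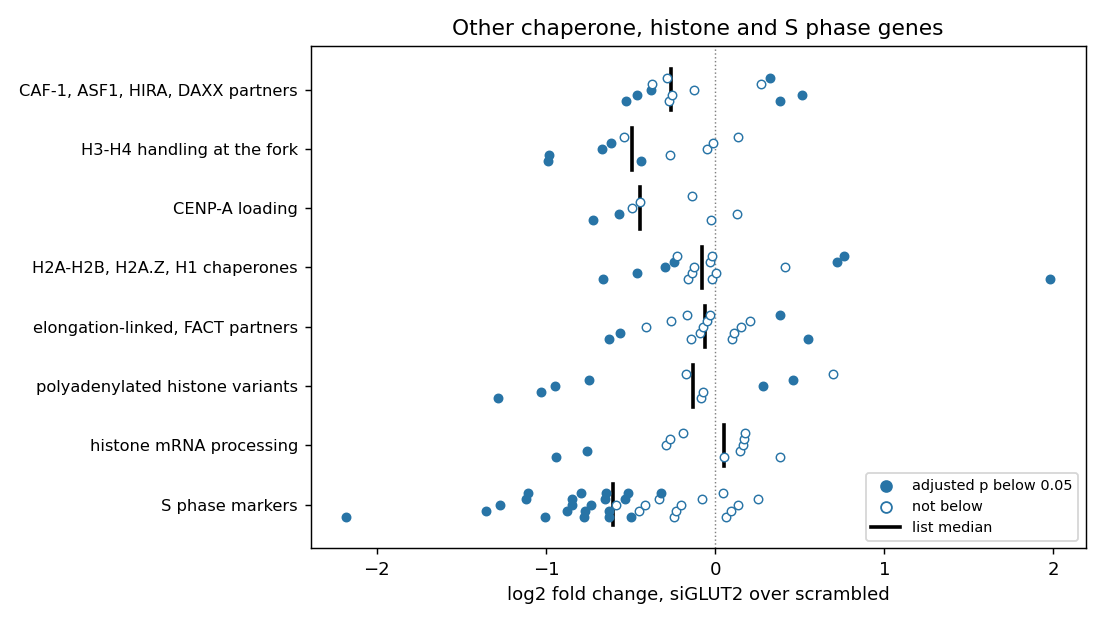
Log2 fold change of siGLUT2 over scrambled (horizontal axis) of each tested gene in 8 lists (rows); filled circles passed an adjusted p of 0.05 in edgeR's test, open circles did not, and the black bar is the list's median. The S phase row has 21 filled circles, all left of 0, while the rows of partners, H2A chaperones, elongation factors and histone variants have filled circles on both sides.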

How the data were processed

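Per the labels' protocols, libraries were made from 125 ng of total RNA by a digital mRNA-seq method that reads transcript 3' ends, and sequenced single-end for 100 cycles. The authors deposited raw counts per Ensembl gene for 7 libraries. The submitters' processing notes list STAR, HTSeq, edgeR and the hg38 build, with no version. Not given in the sources used here are the annotation, the strand setting and whether molecular identifiers were used.

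Groups came from the sample titles, and genes were matched by deposited symbol (current or older). siGLUT2 was compared with scrambled with edgeR 4.0.16 under R 4.3.3. Low genes were removed by filterByExpr (at least 10 counts, total at least 15), followed by TMM scaling, robust estimateDisp and glmQLFit, glmQLFTest, Benjamini-Hochberg adjustment, threshold 0.05. Standard errors are the fold change over the square root of F. Alternatives were DESeq2 1.42.0, limma-voom (limma 3.58.1), other scalings and filters, a replicate block and leaving out each library. The scripts were tested on simulated data. Some cell type markers are not reported here by name.

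The members, classes and lists were chosen with earlier results of these data known. Named genes are the members, SLC2A2 and, per list, up to 4 passing genes with the smallest adjusted p. Where fewer than 2 passed, up to 2 of highest CPM were taken. LUM, COL1A1, PCNA, HAT1, WDHD1, CCNE2, ATAD2, MMS22L, DNAJC9, CENPA, H3-3A, UBN2, CENPC and ERI1 were added after their values were seen. No 2 libraries of a group held identical values. Positions are from GENCODE 29 (GRCh38), 3' UTR words from its transcripts, and promoters from RefSeq (9 of 10 members matched).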

Additional observations from a re-analysis of the deposited data

Results flagged for a closer look

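Among 42 groups of 4 scrambled libraries checked (members, ratios and named genes), 4 had a library whose gap to its nearest neighbour took most of the group's range; chance alone gives about 1 in 20. For NASP this was scrambled replicate 2 at 431.1 CPM, with the other 3 libraries between 370.3 and 377.8 CPM. For DAXX it was scrambled replicate 4 at 104.8 CPM, above 91.7 to 92.9 CPM in the others. The CHAF1A over CHAF1B ratio was 4.38 in scrambled replicate 2 and 3.21 to 3.35 in the others. MACROH2A1 was at 251.6 CPM in 1 scrambled library and at 227.8 to 230.3 CPM in the others. The siGLUT2 group, with 3 libraries, was too small for this check.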

How the results depend on the processing

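The count of genes called was 3509 and ran from 2635 in the replicate block to 3688 without a low-count filter, and from 2796 to 3778 with 1 library left out. Over 14 alternatives the log2 fold changes ran from -1.97 to -1.84 for SSRP1, -0.885 to -0.798 for SUPT16H and -0.706 to -0.549 for NASP, given as description. The count of members called, likewise a description, was 3 in the block, where CHAF1B left it, and 3 to 6 with 1 library left out. CHAF1B left it without any library other than siGLUT2 replicate 4, and the 6 came without that library, with ASF1B and DAXX added. HIRA moved to -0.485 without siGLUT2 replicate 3 and was not tested at a minimum count of 30. The class difference of -0.32 was -0.0495 with NASP counted as general, -0.481 with FACT left out and -0.356 to -0.0342 with 1 library left out. With 1 library left out, CENP-A genes called lower were 1 to 2, elongation genes higher 1 to 2, H2A chaperones higher 1 to 3 and lower 2 to 5, and S phase markers higher 0 to 1, the 1 coming without siGLUT2 replicate 2. In the replicate block (replicates 2 to 4 of each group) 1 CENP-A gene was called lower. Same-numbered libraries did not deviate together (r of -0.0012, 0.046 and -0.031 over 8886 genes). Differently numbered libraries had r from -0.065 to 0.056. So few values cannot settle whether same-numbered libraries were prepared together. The causes were not tested. Counting alone would give HIRA a coefficient of variation of 18.5% in siGLUT2 libraries, where it was 68.1%.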
